A study of Oryctolagus cuniculus with 134 samples.

Results

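Genes of ferritin and of other proteins of iron handling were followed at the RNA level in the proximal aorta and the 4 heart valves of rabbits. The genes were FTL, FTH1, TFRC, SLC40A1 and HMOX1, chosen by name with their expression in these samples already known. Of the 5 symbols, 4 were found among the 29587 genes of the count tables, 14716 of which carry a symbol: FTL (ENSOCUG00000000014), TFRC (ENSOCUG00000017033), SLC40A1 (ENSOCUG00000004826) and HMOX1 (ENSOCUG00000010633). FTH1, the heavy chain of ferritin, had no row under that symbol and was not analysed here. All 4 genes passed the filter on low counts in every tissue. Since their expression led to their choice, their levels and fold changes are described without tests, and tests are given only for other genes of iron handling and for marker genes of cell types.

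Male New Zealand White rabbits, 12 weeks old at the start, were kept for 16 weeks on 1 of 4 treatments. Ctrl rabbits received chow without vitamin D2. CHT rabbits received food with 0.3% cholesterol, and Lard rabbits food with 5% lard, each with 25000 U vitamin D2 a day per 2.5 kg of body weight for 15 days. IR/CHT rabbits received the CHT diet with vitamin D2 and, after 8 weeks of diet, 24 Gy of X-rays to the heart in 3 fractions of 8 Gy at 48 h intervals. The paper describes its cardiac irradiation as aimed at the aortic valve and thoracic aorta. The dose that reached each tissue is not given, so differences between tissues on IR/CHT cannot be told apart from differences in dose. Each tissue gave 7 Ctrl, 6 CHT, 7 Lard and 7 IR/CHT libraries, except for 6 Ctrl libraries of the mitral valve. The effects of diet and of vitamin D2 against Ctrl cannot be told apart in these groups, and irradiation was measured only on top of the CHT diet. Between 13564979 and 50577676 read pairs were assigned to genes in a library (median 18235577). Levels are given as CPM, the read pairs of a gene divided by the scaled total of its library in units of 1000000. The fewest read pairs in a library were 3639 for FTL, 72 for TFRC, 441 for SLC40A1 and 21 for HMOX1, so counting error was largest for HMOX1.

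Iron enters most cells bound to transferrin, through the transferrin receptor TFRC. What is not used at once is stored inside ferritin, a hollow shell built from light chains (FTL) and heavy chains (FTH1), and ferroportin, encoded by SLC40A1, is the exporter of iron from the cell. Heme oxygenase 1, encoded by HMOX1, is an inducible enzyme that opens the heme ring and sets its iron free, for instance in macrophages that take up red blood cells. When iron is short, iron regulatory proteins bind to iron-responsive elements in messenger RNAs, stabilize that of TFRC and block translation of those of ferritin and of ferroportin in most cells. The translational part of this control does not show in RNA levels. Macrophages of atherosclerotic lesions are known for high ferritin and heme oxygenase 1.

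Some libraries stood apart from their group. In 8 libraries, the median Spearman correlation with the other libraries of the group over the genes tested was under 0.93, a limit set after the data were seen. The lowest, 0.807, was that of replicate L168 of the tricuspid valve on Ctrl, in which the summed level of heart muscle markers was 623 CPM, against 9101 to 44711 CPM in the other 6 libraries of its group. Its endothelial markers summed to 438 CPM, against 1172 to 1689 CPM, and its fibroblast and interstitial cell markers to 26785 CPM, against 8318 to 10749 CPM. The other 7 were Ctrl replicates L150, L166 and L261, CHT replicate L151 and IR/CHT replicate L178 of the aortic valve, and IR/CHT replicates L275 of the pulmonary and L197 of the tricuspid valve. Compared with the Ctrl libraries that did not stand apart, L168 had a median Spearman correlation of 0.852 with those of the tricuspid valve but of 0.932 with those of the aortic and 0.927 with those of the mitral valve. The other 2 right-sided libraries were also more like the aortic valve, L197 at 0.949 against 0.906 and L275 at 0.964 against 0.931 with their labelled valve, whereas the 5 aortic valve libraries were most like the aortic valve. Whether the tissue of L168 was labelled correctly cannot be told from these values, so each tricuspid Ctrl value holds for the libraries as labelled. In each of the 8, the FTL level was above and the TFRC and SLC40A1 levels were below the mean of the rest of its group. Values without them are given where a direction, an overlap or a size changed. The smooth muscle markers summed to between 11380 and 113373 CPM in the aorta and to between 660 and 2816 CPM in the valves, except for 21378 CPM in IR/CHT replicate L176 of the pulmonary valve. The adult haemoglobin genes were not among the symbols found, so blood in the samples was followed only by 8 other red cell markers.

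FTL, the storage gene, was higher on CHT and IR/CHT than on Ctrl in the aorta and both left-sided valves, and close to Ctrl on Lard in the valves. In these bulk samples, a change in the number of cells of a type and a change in RNA per cell cannot be told apart. In the aorta, FTL ranged from 220 to 338 CPM on Ctrl (median 277.5 CPM), from 774 to 2513 CPM on CHT (median 1410 CPM), from 245.96 to 986 CPM on Lard (median 343 CPM) and from 1505 to 3757 CPM on IR/CHT (median 2016 CPM). Every CHT and every IR/CHT library was thus above every Ctrl library, whereas the Lard libraries overlapped with Ctrl. The log2 fold change against Ctrl was 2.50 (SE 0.30) on CHT, 0.65 (SE 0.28) on Lard and 3.02 (SE 0.30) on IR/CHT. Without Lard replicate L578, the library at 986 CPM, that on Lard was 0.33.

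In the aortic valve, FTL ranged from 404 to 1108 CPM on Ctrl (median 493.1 CPM), from 825 to 2483 CPM on CHT (median 1364 CPM), from 386 to 670 CPM on Lard (median 434 CPM) and from 2117 to 6592 CPM on IR/CHT (median 3603 CPM). The IR/CHT libraries held the highest FTL levels of the 20 groups and lay above all Ctrl libraries, while the CHT libraries overlapped with Ctrl through Ctrl replicates L150, L166 and L261. The log2 fold change against Ctrl was 1.18 (SE 0.30) on CHT, -0.46 (SE 0.29) on Lard and 2.73 (SE 0.31) on IR/CHT, and that of IR/CHT against CHT was 1.55 (SE 0.31). Without the 5 aortic valve libraries that stood apart, these were 1.56 on CHT, 0.14 on Lard, 3.14 on IR/CHT and 1.58 for IR/CHT against CHT, so the direction on Lard turned. Without them, the CHT libraries, from 825 to 2015 CPM, lay above the Ctrl libraries, from 404 to 493.1 CPM, and below all IR/CHT libraries.

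In the mitral valve, FTL ranged from 393 to 659 CPM on Ctrl (median 461 CPM), from 634 to 2286 CPM on CHT (median 941 CPM), from 363 to 568.4 CPM on Lard (median 409 CPM) and from 963 to 3760 CPM on IR/CHT (median 1877 CPM). The IR/CHT libraries lay above all Ctrl libraries, and the CHT and Ctrl ranges met at their ends. The log2 fold change against Ctrl was 1.31 (SE 0.32) on CHT, -0.14 (SE 0.30) on Lard and 2.13 (SE 0.32) on IR/CHT. In the pulmonary valve, mean FTL was 398 ± 37.0 CPM on Ctrl (SD, n = 7), 396 ± 54.0 CPM on CHT (SD, n = 6), 415 ± 78.0 CPM on Lard (SD, n = 7) and 592 ± 128 CPM on IR/CHT (SD, n = 7). In the tricuspid valve, it was 425 ± 207 CPM on Ctrl (SD, n = 7), 420 ± 71.0 CPM on CHT (SD, n = 6), 378 ± 58.4 CPM on Lard (SD, n = 7) and 664 ± 121 CPM on IR/CHT (SD, n = 7). In both valves of the right heart, each group overlapped with Ctrl. In the tricuspid valve, the lowest IR/CHT library, at 479 CPM, was above the highest Lard library, at 459 CPM. Against Ctrl, IR/CHT had a log2 fold change of 0.58 (SE 0.13) in the pulmonary and 0.62 (SE 0.22) in the tricuspid valve. Without Ctrl replicate L168, which at 883 CPM was above the 253 to 400 CPM of the other 6 Ctrl libraries, the latter was 0.97, the IR/CHT libraries lay above all Ctrl libraries, and the log2 fold changes on CHT and Lard turned from -0.06 to 0.30 and from -0.23 to 0.12.

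HMOX1, which releases iron from heme, was low on Ctrl and was higher on CHT and IR/CHT, most of all in the 3 tissues in which FTL was. In the aorta, HMOX1 ranged from 1.33 to 4.60 CPM on Ctrl (median 3.42 CPM), from 10.7 to 38.6 CPM on CHT (median 25.2 CPM), from 2.86 to 11.0 CPM on Lard (median 6.26 CPM) and from 18.3 to 118 CPM on IR/CHT (median 46.8 CPM). The CHT and IR/CHT libraries were all above the Ctrl libraries, with a log2 fold change against Ctrl of 2.97 (SE 0.41) on CHT and 4.23 (SE 0.42) on IR/CHT. The Lard libraries overlapped with Ctrl, at a log2 fold change of 1.03 (SE 0.39). HMOX1 in the aortic valve ranged from 4.75 to 10.9 CPM on Ctrl (median 8.05 CPM), from 13.9 to 33.4 CPM on CHT (median 28.0 CPM), from 2.97 to 10.5 CPM on Lard (median 4.62 CPM) and from 70.6 to 127 CPM on IR/CHT (median 99.9 CPM). Here HMOX1 separated Ctrl, CHT and IR/CHT without overlap, the only one of the 4 genes and 5 tissues to do so with all libraries in place. Its log2 fold change was 1.61 (SE 0.26) for CHT against Ctrl, 3.60 (SE 0.28) for IR/CHT against Ctrl and 1.99 (SE 0.27) for IR/CHT against CHT.

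In the mitral valve, mean HMOX1 was 9.15 ± 4.36 CPM on Ctrl (SD, n = 6), 23.4 ± 9.07 CPM on CHT (SD, n = 6), 8.57 ± 3.83 CPM on Lard (SD, n = 7) and 44.5 ± 10.1 CPM on IR/CHT (SD, n = 7). The lowest IR/CHT library, at 31.9 CPM, was above the highest Ctrl library, at 16.8 CPM, and the log2 fold change against Ctrl was 1.37 (SE 0.31) on CHT and 2.30 (SE 0.31) on IR/CHT. In the pulmonary valve, mean HMOX1 was 4.77 ± 1.66 CPM on Ctrl (SD, n = 7), 8.85 ± 4.47 CPM on CHT (SD, n = 6), 4.91 ± 1.69 CPM on Lard (SD, n = 7) and 13.7 ± 9.81 CPM on IR/CHT (SD, n = 7). The highest IR/CHT library there, replicate L176 at 34.5 CPM, was the one with the smooth muscle markers. In the tricuspid valve, mean HMOX1 was 6.03 ± 2.21 CPM on Ctrl (SD, n = 7), 11.8 ± 7.83 CPM on CHT (SD, n = 6), 8.31 ± 5.79 CPM on Lard (SD, n = 7) and 19.2 ± 10.5 CPM on IR/CHT (SD, n = 7). All right-sided groups overlapped, with log2 fold changes of IR/CHT against Ctrl of 1.53 (SE 0.35) in the pulmonary and 1.67 (SE 0.44) in the tricuspid valve.

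**Figure D1:**
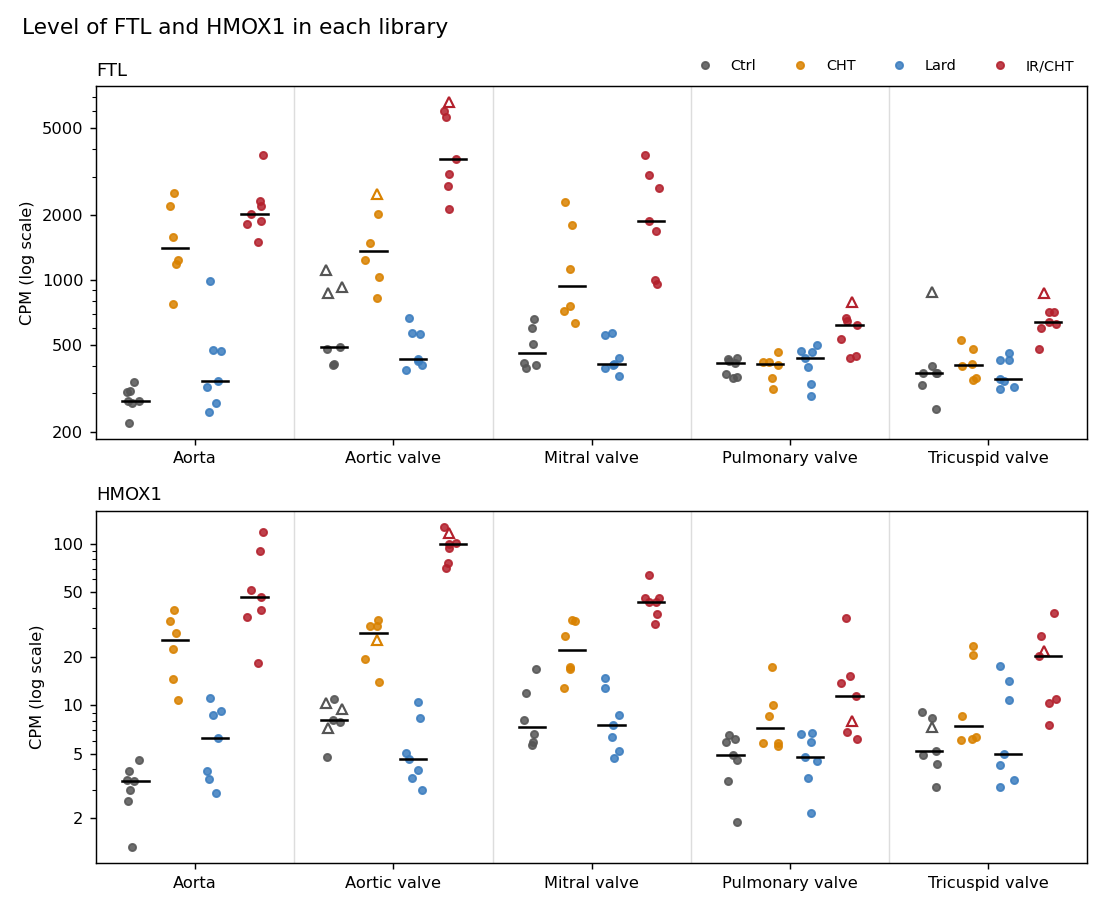
Level of FTL (top) and HMOX1 (bottom) in CPM on a log axis in each library, by tissue and treatment. Each point is a library, black lines mark group medians, and open triangles are the 8 libraries unlike their group. In the aorta, all CHT and IR/CHT libraries lie above the Ctrl libraries for both genes, and in the aortic valve on IR/CHT the median is 3603 CPM for FTL and 99.9 CPM for HMOX1.

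TFRC, the uptake receptor, differed between treatments mainly in the aortic and mitral valve. TFRC in the aortic valve ranged from 5.40 to 26.0 CPM on Ctrl (median 17.1 CPM), from 18.5 to 57.5 CPM on CHT (median 42.6 CPM), from 9.64 to 23.3 CPM on Lard (median 19.6 CPM) and from 42.4 to 171.6 CPM on IR/CHT (median 107 CPM). The IR/CHT libraries were all above the Ctrl libraries. The log2 fold change against Ctrl was 1.30 (SE 0.33) on CHT and 2.86 (SE 0.34) on IR/CHT, and that of IR/CHT against CHT was 1.57 (SE 0.34). Without the 5 libraries that stood apart, 3 of which were the Ctrl libraries lowest in TFRC, these were 0.95, 2.37 and 1.42, and the CHT libraries, at 30.7 CPM or more, also lay above the Ctrl libraries.

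In the mitral valve, TFRC ranged from 16.3 to 25.1 CPM on Ctrl (median 18.6 CPM), from 27.3 to 31.2 CPM on CHT (median 28.7 CPM), from 16.0 to 24.4 CPM on Lard (median 18.5 CPM) and from 29.8 to 67.7 CPM on IR/CHT (median 45.3 CPM). Both CHT and IR/CHT lay above Ctrl without overlap, at a log2 fold change of 0.58 (SE 0.18) and 1.28 (SE 0.18). In the aorta, mean TFRC was 53.4 ± 11.9 CPM on Ctrl (SD, n = 7), 64.7 ± 11.0 CPM on CHT (SD, n = 6), 63.4 ± 24.1 CPM on Lard (SD, n = 7) and 74.7 ± 8.70 CPM on IR/CHT (SD, n = 7), and all ranges overlapped. The log2 fold change of IR/CHT against Ctrl was thus 0.55 (SE 0.17) for TFRC in the aorta, where that of FTL was 3.02. In the pulmonary and tricuspid valve, mean TFRC on IR/CHT, at 20.1 ± 3.46 and 30.3 ± 6.90 CPM (SD, n = 7 each), was below the 25.6 ± 4.11 and 36.5 ± 14.1 CPM on Ctrl (SD, n = 7 each), with overlap and log2 fold changes of -0.34 (SE 0.14) and -0.26 (SE 0.23). Without L168, the tricuspid value was -0.40.

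SLC40A1, the exporter, differed between tissues more than between treatments. On Ctrl, mean SLC40A1 was 183.04 ± 13.2 CPM in the pulmonary valve, 124 ± 33.4 CPM in the tricuspid valve and 88.2 ± 35.2 CPM in the aortic valve (SD, n = 7 each), 93.6 ± 12.1 CPM in the mitral valve (SD, n = 6) and 53.6 ± 6.28 CPM in the aorta (SD, n = 7). The pulmonary valve lay above the other 4 tissues without overlap on Ctrl. The aorta lay below the mitral valve without overlap, and it overlapped with the aortic and tricuspid valve only through L150, L261 and L168. Without the libraries that stood apart, the lowest Ctrl levels were 90.3 CPM in the aortic and 106.7 CPM in the tricuspid valve, so that the aorta, at 64.0 CPM or less, lay below every valve. The order of tissue means was nearly the same on the other treatments, with 174.8 to 197.9 CPM in the pulmonary, 145 to 157.6 CPM in the tricuspid, 79.1 to 95.9 CPM in the aortic and 82.5 to 94.9 CPM in the mitral valve, and 50.7 to 63.8 CPM in the aorta. Over the 20 comparisons between treatments, the log2 fold change of SLC40A1 lay between -0.18 and 0.35, and in each the groups overlapped. Without the libraries that stood apart, that on CHT in the aortic valve was -0.39.

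**Figure D2:**
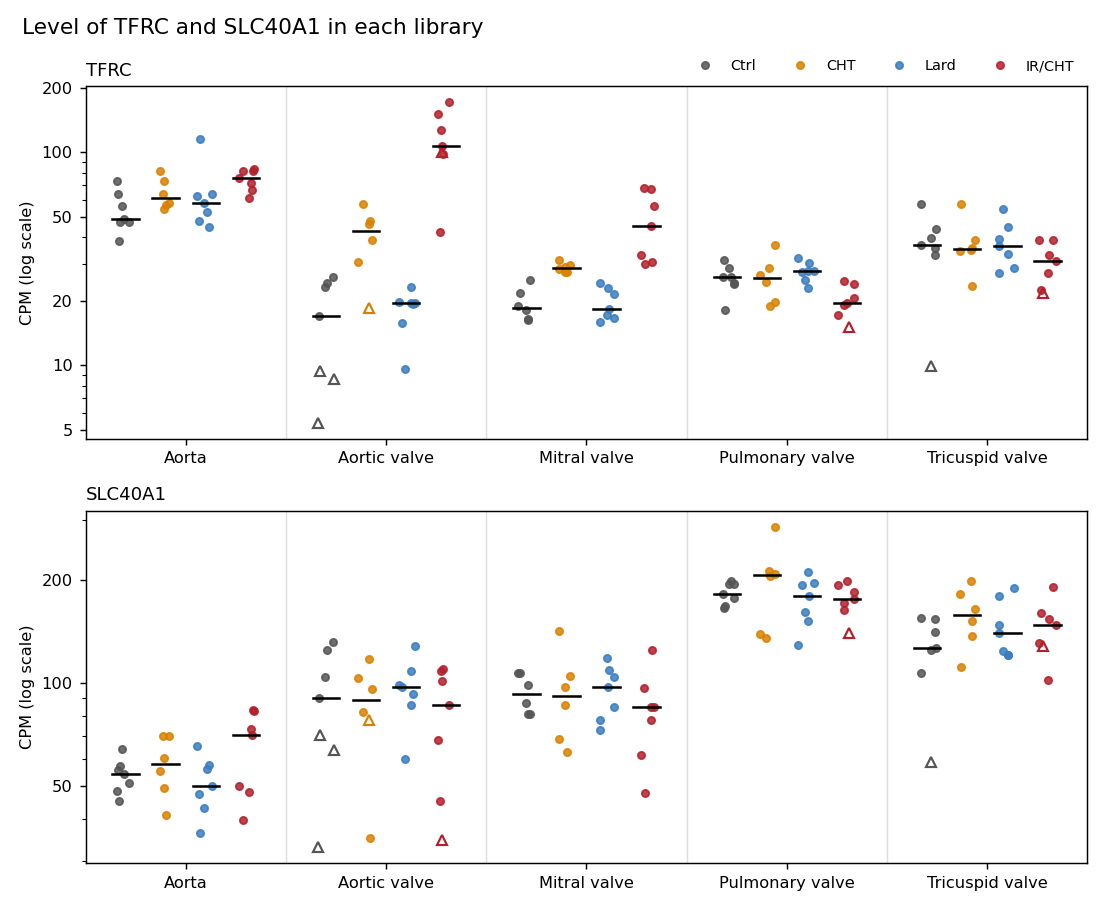
Level of TFRC (top) and SLC40A1 (bottom) in CPM on a log axis in each library, by tissue and treatment, with points, medians and triangles as for FTL and HMOX1. The IR/CHT libraries of the aortic valve reach 171.6 CPM of TFRC, whereas the SLC40A1 medians stay close within a tissue and are highest in the pulmonary valve.

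The order of the 20 groups differed between the genes. For FTL and HMOX1, the 6 highest means were those of IR/CHT and CHT in the aorta and the left-sided valves, the aortic and the mitral, and the lowest was that of the aorta on Ctrl. Neighbours in the order overlapped in their ranges for all 4 genes. For TFRC, the aortic valve held both the highest mean, 114 ± 41.8 CPM on IR/CHT, and the lowest, 16.3 ± 8.48 CPM on Ctrl (SD, n = 7 each), and the 4 aorta groups came next after the highest. For SLC40A1, the 4 pulmonary valve groups came first and the 4 aorta groups last. On Ctrl, TFRC in the aorta lay above the aortic, mitral and pulmonary valves without overlap, at 3.28 times, 2.74 times and 2.09 times their means, and FTL and HMOX1 in the aorta lay below the aortic and mitral valves without overlap. Within rabbits, by the number that opens each column name, TFRC was higher in the aorta than in the aortic valve in 7 of 7 Ctrl rabbits, than in the mitral valve in 6 of 6 and than in the tricuspid valve in 6 of 7. SLC40A1 was higher in the pulmonary than in the tricuspid valve in 7 of 7. Levels were not compared between genes, because CPM does not account for gene length.

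**Figure D3:**
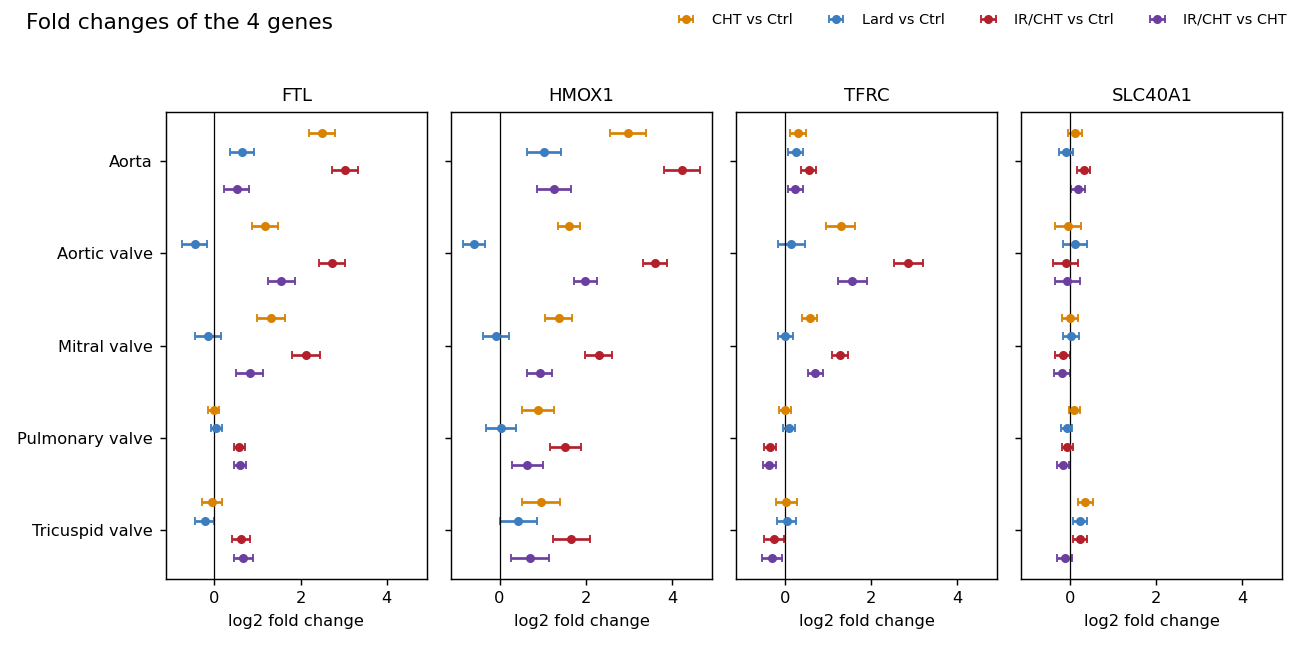
Log2 fold change (x axis) of FTL, HMOX1, TFRC and SLC40A1 in the 5 tissues (y axis) for the 4 comparisons, with bars of 1 standard error from the model of each tissue. FTL and HMOX1 reach 3.02 and 4.23 in the aorta on IR/CHT, TFRC reaches 2.86 in the aortic valve on IR/CHT, and SLC40A1 stays between -0.18 and 0.35.

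Of the 4 genes, 2 lay above Ctrl without overlap in the aorta on CHT and 2 on IR/CHT, 1 and 3 in the aortic valve, and 1 and 3 in the mitral valve. Of all genes tested, 7.76% and 11.2% did so in the aorta on CHT and IR/CHT, from which nothing is read, since these levels led to the choice of the genes. The shares were 4.71%, 12.2% and 5.00% in the aortic valve on CHT, on IR/CHT and for IR/CHT against CHT, and 2.92% and 5.73% in the mitral valve on CHT and IR/CHT. The comparisons with Ctrl share the Ctrl libraries, and those of CHT with Ctrl and of IR/CHT with CHT share the CHT libraries.

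The count tables came as 2 plates. Plate 2 held every library of the aorta and plate 1 every CHT library of the aortic and the mitral valve, so the plate could be held fixed only in part. Within plate 1, the log2 ratio of mean FTL on CHT to that on Ctrl was 1.13 in the aortic valve and 1.16 in the mitral valve, and that of mean HMOX1 was 1.74 and 1.83. For IR/CHT against Ctrl in the aortic valve, the log2 ratio was 2.80 on plate 1 and 2.42 on plate 2 for FTL, 3.01 and 2.49 for TFRC, and 3.85 and 3.16 for HMOX1. For IR/CHT against Ctrl in the mitral valve, HMOX1 gave 2.85 on plate 1 and 1.502 on plate 2, where 2 Ctrl libraries remained. In the tricuspid valve, FTL gave 0.97 on plate 1 and 0.05 on plate 2, where L168 was 1 of the 2 Ctrl libraries. In the pulmonary valve, where plate 2 held 2 libraries each of Ctrl, CHT and IR/CHT, HMOX1 on CHT against Ctrl gave 1.30 on plate 1 and -0.08 on plate 2.

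Markers of macrophages moved with FTL and HMOX1. Of 18 macrophage markers, 17 were found, and their summed level in the aorta ranged from 87.2 to 324 CPM on Ctrl, 584 to 1507 CPM on CHT, 218 to 591 CPM on Lard and 931 to 3028 CPM on IR/CHT. The sum in the aortic valve ranged from 242.6 to 708 CPM on Ctrl, 1016 to 1497 CPM on CHT, 157.4 to 820 CPM on Lard and 2852 to 3676 CPM on IR/CHT. In the mitral valve it ranged from 289 to 763 CPM on Ctrl, 762 to 1482 CPM on CHT, 255.5 to 837 CPM on Lard and 1060 to 2088 CPM on IR/CHT, so that CHT met the end of the Ctrl range. Of the 17 markers, 13 passed the test as higher in the aorta on CHT, beside 19.4% of all genes called in either direction, 8 on Lard, beside 2.61%, and 17 on IR/CHT, beside 34.3%. In the aortic valve, 9 passed on CHT, beside 11.9%, and 14 on IR/CHT, beside 42.8%, and in the mitral valve 11 and 13, beside 5.62% and 17.7%. In the pulmonary and tricuspid valve, 3 of 17 and 2 of 16 macrophage markers tested passed on IR/CHT, beside 0.706% and 0.231%. Of 4 neutrophil markers tested in the aorta, 2 were higher on Lard, beside 2.61% of all genes called, and 3 on IR/CHT, beside 34.3%. The 11 neutrophil markers found summed there to only 0.94 to 3.48 CPM on Ctrl and 3.54 to 11.6 CPM on IR/CHT. On Lard their sum ranged from 1.31 to 40.8 CPM with a median of 3.38 CPM, so the highest library lay far above the median.

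Smooth muscle markers fell in the aorta, with 3 of 6 tested lower on CHT, beside 19.4% of all genes called, and 5 of 6 on IR/CHT, beside 34.3%. In the aortic valve on IR/CHT, 2 of 6 were higher and 4 lower, beside 42.8%. Without L566, a library of the aorta on IR/CHT, 5 of 6 were lower in the aorta on CHT, beside 19.7%. Without the 5 libraries that stood apart, 2 were higher and 2 lower in the aortic valve on IR/CHT, beside 37.1%. Heart muscle markers fell in the aortic valve, with 8 of 10 lower on CHT, 5 on Lard, beside 0.234% of all genes, and 9 on IR/CHT, and without the 5 libraries that stood apart with 9 lower on each treatment. In the aorta, 5 of 9 heart muscle markers were higher and 2 lower on IR/CHT against Ctrl, beside 34.3% of all genes called. For IR/CHT against CHT, 5 of 9 were higher, beside 0.596% of all genes. Their summed level on IR/CHT was 3095 CPM in replicate L566 and 251.2 to 833 CPM in the other 6 libraries, below the 835 to 1100 CPM on Ctrl. Without L566, 2 were higher and 2 lower on IR/CHT against Ctrl, beside 29.9% of all genes called, and edgeR called 0 on IR/CHT against CHT, with 6 at an unadjusted p under 0.05, beside 0.0272%, while FTL and HMOX1 had log2 fold changes of 2.84 and 3.94 against Ctrl. Endothelial markers rose in the aorta, with 8 of 9 higher on CHT and on IR/CHT, and 8 of 8 proliferation markers were higher there and in the aortic valve on both treatments. Proliferation markers of the mitral valve were higher too, 7 of 8 on CHT, beside 5.62% of all genes called, and 8 on IR/CHT, beside 17.7%. Of 7 fibroblast and interstitial cell markers, 3 (42.9%) were higher in the aorta on CHT, beside 19.4% of all genes called, 1 on Lard, beside 2.61%, and 4 (57.1%) on IR/CHT, beside 34.3%. In the aortic valve on IR/CHT, 1 was higher and 2 lower, 42.9% in all, which is the share of all genes, 42.8%. Among the few red cell markers, 2 of 5 tested were lower in the aorta on CHT and on IR/CHT, beside 19.4% and 34.3% of all genes called, and in the aortic valve 1 on CHT and 2 on IR/CHT, beside 11.9% and 42.8%, so that the counts on IR/CHT were near those shares. Without L566, edgeR called 0 of 5 in the aorta on IR/CHT, with 2 at an unadjusted p under 0.05. Without the 5 libraries that stood apart, it called 0 in the aortic valve on CHT, with 1 at an unadjusted p under 0.05, and 1 on IR/CHT. The mitral valve on CHT had 1 of 5 red cell markers higher, beside 5.62% of all genes called, and there the summed red cell markers ranged from 49.6 to 124 CPM, against 24.5 to 52.3 CPM on Ctrl. With the group means removed, log2 FTL correlated over all libraries at 0.43 with the sum of fibroblast and interstitial cell markers and at 0.29 with that of macrophage markers, and HMOX1 at 0.20 and 0.50. FTL correlated at 0.43 with the sum of T and B cell markers and at 0.29 with that of neutrophil markers, and HMOX1 at 0.16 and 0.31. Of 10 T and B cell markers, 4 were found, with a sum of at most 5.06 CPM in the aortic valve, and the 1 tested was higher in the aorta and the aortic valve on IR/CHT. These are descriptions, since libraries share tissues and rabbits. The part of cell composition in the levels of the 4 genes was not tested.

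**Figure D4:**
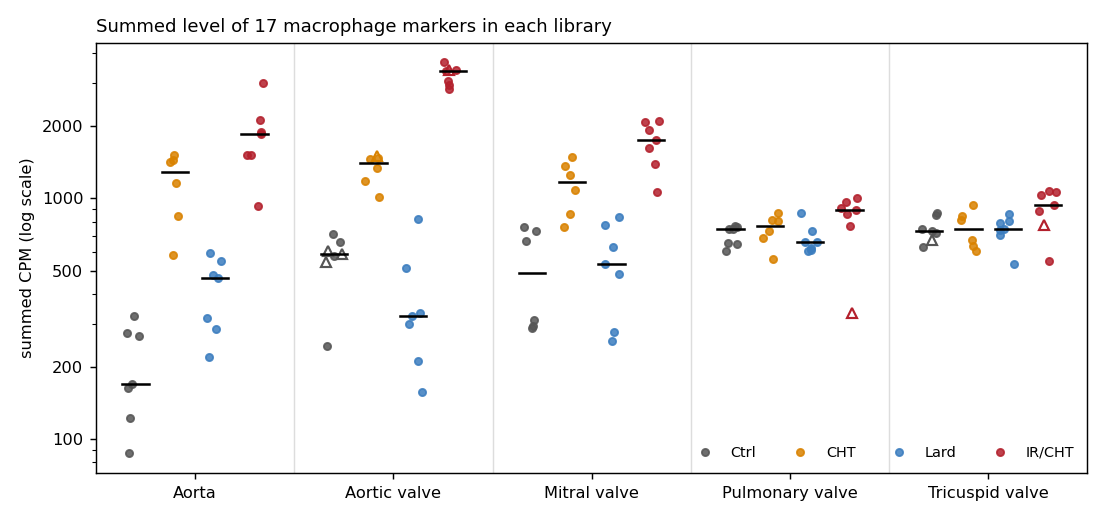
Summed level of the 17 macrophage markers found, in CPM on a log axis, in each library by tissue and treatment, with lines for medians and open triangles for the 8 libraries unlike their group. The IR/CHT libraries of the aortic valve lie between 2852 and 3676 CPM, above all other groups of that tissue, and the right-sided valves differ less.

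Genes with the most similar pattern over all libraries differed between the 4 genes. Similarity was the Pearson correlation of log2 CPM over all libraries, among 9675 genes with a symbol, and libraries share tissue, treatment and rabbit, so that it is a description. For FTL, the 5 most similar genes were BTBD11 (0.95), WDFY4 (0.95), CD68 (0.95), a lysosomal protein used as a macrophage marker, ADAP2 (0.95) and MYO1F (0.95). For HMOX1, they were ITGB2 (0.91), the beta chain of leukocyte integrins, ARHGAP30 (0.91), PLTP (0.90), a phospholipid transfer protein, UCP2 (0.90) and CSF1R (0.90), the receptor of macrophage colony-stimulating factor. For TFRC, they were ACO1 (0.88), which encodes iron regulatory protein 1, AP1S2 (0.87), ATP6AP2 (0.86), ERO1A (0.86) and SRP14 (0.86). For SLC40A1, they were AMOT (0.93), TTC3 (0.91), SLC39A10 (0.90), a zinc transporter, ERLIN1 (0.89) and TBC1D31 (0.89). After the group means were subtracted, these correlations were between 0.69 and 0.77 for FTL, 0.55 and 0.61 for HMOX1, 0.67 and 0.78 for TFRC, and 0.71 and 0.78 for SLC40A1. FTL and HMOX1 themselves correlated at 0.86 over all libraries and at 0.31 with the group means removed, and FTL and SLC40A1 at -0.43 and -0.51.

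The other genes of iron and heme handling were taken from 10 lists by role with 83 genes, 65 of which were found by symbol, and were tested in each tissue by edgeR's quasi-likelihood test with Benjamini-Hochberg adjustment over all genes. In the aorta, 16 of 58 tested rose and 1 fell on CHT (29.3%, beside 19.4% of all genes called), 5 rose on Lard (8.62%, beside 2.61%), and 21 rose and 1 fell on IR/CHT (37.9%, beside 34.3%). In the aortic valve, 10 of 60 rose and 1 fell on CHT (18.3%, beside 11.9%), 17 rose and 9 fell on IR/CHT (43.3%, beside 42.8%), and 9 rose and 5 fell on IR/CHT against CHT (23.3%, beside 19.7%). In the mitral valve, 4 of 60 rose and 1 fell on CHT (8.33%, beside 5.62%), and 12 rose and 2 fell on IR/CHT (23.3%, beside 17.7%). The median log2 fold change of the 58 genes on CHT in the aorta was 0.14, that of all genes -0.04, and that of the 60 genes on IR/CHT in the aortic valve 0.26, that of all genes -0.06. Without the 5 aortic valve libraries that stood apart, the aortic valve counts were 9 on CHT, all as higher (15.0%, beside 7.51% of all genes called in the same fit), 24 of 60 on IR/CHT, beside 37.1%, and 16 for IR/CHT against CHT (26.7%, beside 19.4%). The count on Lard in the aorta was 10 by DESeq2 and 0 with only the 2 groups in the model. In the aortic valve on Lard, 0 of 60 were called by edgeR and 0 by DESeq2, with 7 at an unadjusted p under 0.05, beside 0.234% of all genes. In the mitral valve on Lard it was 0 and 0, with 2, beside 0.00%. For IR/CHT against CHT, 0 of 58 were called in the aorta and 0 of 60 in the mitral valve, beside 0.596% and 0.189% of all genes. There 10 and 11 had an unadjusted p under 0.05, and 2 and 0 were called by DESeq2. LPCAT3 of the pulmonary valve rose on CHT, beside 0.159% of all genes called, and on IR/CHT, and ACSL4 fell on IR/CHT, beside 0.706%. Both calls on IR/CHT were lost without IR/CHT replicate L176, without Ctrl replicate L242 and with only the 2 groups in the model, and that of LPCAT3 also without Ctrl replicate L167, L184 or L263 or IR/CHT replicate L238 or L549, and that of ACSL4 without L153 or L275. For IR/CHT against CHT, 0 of 57 were called there by edgeR and 1 by DESeq2, with 12 at an unadjusted p under 0.05, beside 0.0761% of all genes. In the tricuspid valve on CHT, edgeR called 0 of 58 and DESeq2 1, with 5 at an unadjusted p under 0.05, beside 0.163%. In the tricuspid valve on IR/CHT, edgeR called 0 of 58 and DESeq2 2, with 8 at an unadjusted p under 0.05, beside 0.231% of all genes called. Without L168, 7 of these genes (12.1%) were called in the tricuspid valve on IR/CHT, beside 6.74% of all genes, and without both L168 and L197, 3 (5.17%), beside 1.05%. The 7 were LTF, SLC22A17, ERFE, FLVCR2, ALOX5 and LPCAT3 higher and CISD1 lower. Over the 20 comparisons, 39 genes were called at least once, 28 as higher, 11 as lower and 0 in both directions, in 117 calls. Of these, 86 were kept whichever library was left out, 16 were lost with only the 2 groups in the model, 9 without the libraries that stood apart and 0 by DESeq2. Where a gene named below lost a call without the libraries that stood apart, with only the 2 groups, or without a single library, this is said beside it.

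Among genes of iron uptake, SLC11A2, which encodes the divalent metal transporter DMT1 that moves iron out of endosomes, rose in 7 comparisons. Its mean level in the aortic valve was 10.7 CPM on Ctrl, 33.9 CPM on CHT and 71.5 CPM on IR/CHT, with log2 fold changes against Ctrl of 1.67 (SE 0.20, adjusted p = 9.89e-07) and 2.80 (SE 0.21, adjusted p = 2.73e-11). STEAP3, an endosomal ferrireductase, rose in 5 comparisons, in the aorta from 0.232 CPM on Ctrl to 3.75 CPM on CHT, 3.12 CPM on Lard and 6.69 CPM on IR/CHT. Its call on CHT in the aortic valve, at a log2 fold change of 1.60, was lost with only the 2 groups (1.59) and without the libraries that stood apart (1.87). It was also lost without any of 7 single libraries, with 0.94 without L265. STEAP2 of the same family rose in 4 and STEAP4 in 2, and MELTF, melanotransferrin, rose in the aorta on Lard and IR/CHT. With only the 2 groups in the model, the call of STEAP4 on CHT in the aortic valve was lost, and so were those of STEAP3 and MELTF on Lard in the aorta, where both then lay below the filter on low counts. SLC39A8, a metal transporter of the ZIP family, rose in 4, of which the calls in the aorta on CHT and in the mitral valve on IR/CHT were lost without any of 9 and 10 single libraries, and the former with only the 2 groups. SCARA5, a receptor for serum ferritin, fell in 5 comparisons, and in the aortic valve its mean level was 638 CPM on Ctrl, 297 CPM on CHT and 149 CPM on IR/CHT, with log2 fold changes of -1.10 (SE 0.25, adjusted p = 0.00281) and -2.04 (SE 0.24, adjusted p = 1.17e-07). Without the 5 libraries that stood apart, the call on CHT was lost, at a log2 fold change of -0.85 (edgeR, adjusted p = 0.0734), and the call on CHT in the mitral valve was lost with only the 2 groups and without any of 9 single libraries. LTF, SLC22A17 and SLC39A14 fell in the aortic valve, LTF on IR/CHT against CHT and the other two on IR/CHT against Ctrl. The call of LTF was lost without L265, and that of SLC39A14 without L150 and without all 5 libraries that stood apart, at a log2 fold change of -0.40 in place of -1.09.

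Of the genes of ferritin chaperoning and turnover, NCOA4, the receptor that carries ferritin to the lysosome, and PCBP1, an iron chaperone for ferritin, rose in the aortic valve on IR/CHT, by a log2 fold change of 0.73 (SE 0.19, adjusted p = 0.00303) and 0.72 (SE 0.11, adjusted p = 7.80e-06), while PCBP4 fell. Without the 5 libraries that stood apart, the calls of NCOA4 and PCBP4 were lost, at log2 fold changes of 0.42 and -0.29, and that of PCBP4 also without any of 6 single libraries. CP, ceruloplasmin, a copper ferroxidase that works beside ferroportin, was the 1 export gene tested. CP rose in the aorta from 11.8 CPM on Ctrl to 131 CPM on CHT, 70.0 CPM on Lard and 133 CPM on IR/CHT, and it also rose on IR/CHT in the aortic and mitral valve. Its call on Lard was lost with only the 2 groups in the model (edgeR, adjusted p = 0.0672). Among the regulators, ACO1 rose in 6 comparisons, and in the aortic valve its mean level was 39.3 CPM on Ctrl, 81.1 CPM on CHT and 139 CPM on IR/CHT. The log2 fold change of ACO1 on IR/CHT against Ctrl was 1.88 (SE 0.15, adjusted p = 7.07e-11) there, 0.60 (SE 0.10, adjusted p = 2.79e-05) in the aorta and 0.68 (SE 0.10, adjusted p = 1.63e-05) in the mitral valve. The call in the aorta on IR/CHT lay near the fold change limit of 1.5 and was lost without L552, L566, L569 or L571, and that on CHT without L574. The other 2 regulators tested, IREB2, iron regulatory protein 2, and FBXL5, which targets it for breakdown, were not called.

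Genes around hepcidin, the circulating hormone that removes ferroportin from the cell surface, went both ways. BMP6, a growth factor that drives hepcidin in the liver, rose in the aorta from 0.563 CPM on Ctrl to 13.5 CPM on CHT and 19.3 CPM on IR/CHT, and ERFE, erythroferrone, from 0.291 to 1.33 and 2.02 CPM, the call of ERFE on CHT being lost without L559. In the aortic valve on IR/CHT, BMP2, a growth factor of the same family, NEO1, a coreceptor of this pathway, and HFE, a partner of the transferrin receptors, fell, by log2 fold changes against Ctrl of -2.24 (SE 0.32, adjusted p = 1.72e-06), -0.98 (SE 0.17, adjusted p = 3.85e-05) and -0.84 (SE 0.18, adjusted p = 0.000353). All 3 also fell on IR/CHT against CHT, HFE not without L174, L178, L236 or L244, and BMP2 fell in the mitral valve on IR/CHT, but not without L156.

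Among the genes listed for heme capture and transport, FLVCR2 rose in 8 comparisons and SLC46A1, which carries folate and heme, in 7. FLVCR2 in the aortic valve was at 1.71 CPM on Ctrl, 21.7 CPM on CHT and 72.4 CPM on IR/CHT, with log2 fold changes against Ctrl of 3.67 (SE 0.39, adjusted p = 1.23e-07) and 5.47 (SE 0.41, adjusted p = 4.10e-11). SLC46A1 in the same tissue was at 3.02, 11.5 and 38.2 CPM. CD163, the scavenger receptor for haemoglobin bound to haptoglobin and also 1 of the macrophage markers, rose in the aorta on IR/CHT from 15.1 to 50.8 CPM. The call of FLVCR2 on Lard in the aorta was lost with only the 2 groups, where it was below the filter on low counts. FLVCR1, listed as a heme exporter, rose in 3 comparisons, in the aortic valve on IR/CHT not without L547 or the libraries that stood apart. SLC48A1, which moves heme out of the lysosome, rose in the mitral valve on IR/CHT.

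Downstream of heme oxygenase, BLVRA, biliverdin reductase, rose in 3 comparisons, of which the call in the aorta on CHT was lost without L572, and that in the aortic valve on IR/CHT without L178, L194 or the libraries that stood apart and with only the 2 groups. HMOX2, the constitutive heme oxygenase, rose in 4, in the aortic valve from 29.2 CPM on Ctrl to 46.1 CPM on CHT and 69.3 CPM on IR/CHT, and BACH1, a heme-binding repressor of HMOX1, rose in 4, in the aortic valve from 47.5 CPM to 94.6 and 129 CPM. Calls of HMOX2 were lost in the aortic valve on CHT without L169 and for IR/CHT against CHT without L186 or L244, and in the mitral valve on IR/CHT without L195 or L237. KEAP1 rose in the aortic valve on IR/CHT against CHT, a call lost without any of 5 single libraries. In heme synthesis, ALAS1, the first enzyme of the pathway outside red cells, rose in the aortic valve on IR/CHT to 78.2 CPM from 37.3 CPM on Ctrl. ALAS2, its red cell form, passed as lower in 3 comparisons, all with overlapping groups. The calls in the aorta on CHT and IR/CHT were each lost with only the 2 groups and without any of 7 single libraries, L566 among them on IR/CHT, and that in the aortic valve on IR/CHT without any of 8 single libraries and without the 5 libraries that stood apart. In the aorta on Ctrl, the summed red cell markers, with ALAS2 among them, ranged from 8.33 to 892 CPM with a median of 29.2 CPM. Of 11 genes of mitochondrial iron and iron-sulfur clusters tested, 2 (18.2%) passed on IR/CHT against Ctrl in the aorta, beside 34.3% of all genes, 1 (9.09%) in the aortic valve, beside 42.8%, and 2 (18.2%) in the mitral valve, beside 17.7%, shares near or below those of all genes. GLRX5 and ABCB8 rose in the aorta, ABCB8 and SLC25A39 in the mitral valve, and SLC25A28, a mitochondrial iron importer, fell in the aortic valve. GLRX5 also rose in the aortic valve on IR/CHT against CHT, a call lost without L186 or L228. The calls of ABCB8 were lost without L565, L568 or L582 in the aorta and without any of 6 single libraries in the mitral valve, that of SLC25A39 without any of 8, and that of SLC25A28 without L277.

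Of the genes around iron-dependent lipid peroxidation, LPCAT3, which places polyunsaturated fatty acids into phospholipids, rose in 9 comparisons, the most of any gene in the lists. Its mean level in the aortic valve was 5.53 CPM on Ctrl, 19.0 CPM on CHT and 31.1 CPM on IR/CHT, and in the pulmonary valve 7.73, 15.7 and 13.6 CPM. Its call for IR/CHT against CHT in the aortic valve was lost without L151. ALOX5, the lipoxygenase of leukotriene synthesis in white blood cells, rose in 5 comparisons, in the aorta from 6.22 CPM on Ctrl to 25.0 CPM on CHT, 14.2 CPM on Lard and 42.3 CPM on IR/CHT, the call on Lard being lost with only the 2 groups and without any of 8 single libraries. SLC7A11, the cystine transporter, passed the test in the aorta on CHT and IR/CHT at mean levels of 0.7095 and 0.556 CPM, against 0.0999 CPM on Ctrl, which is a few read pairs in a library and below the filter with only the 2 groups in the model. ACSL4, which supplies LPCAT3 with activated fatty acids, fell in the pulmonary valve on IR/CHT from 334 to 211 CPM, a call lost, like that of LPCAT3 on IR/CHT there, without L176 or L242, and also without L153 or L275.

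**Figure D5:**
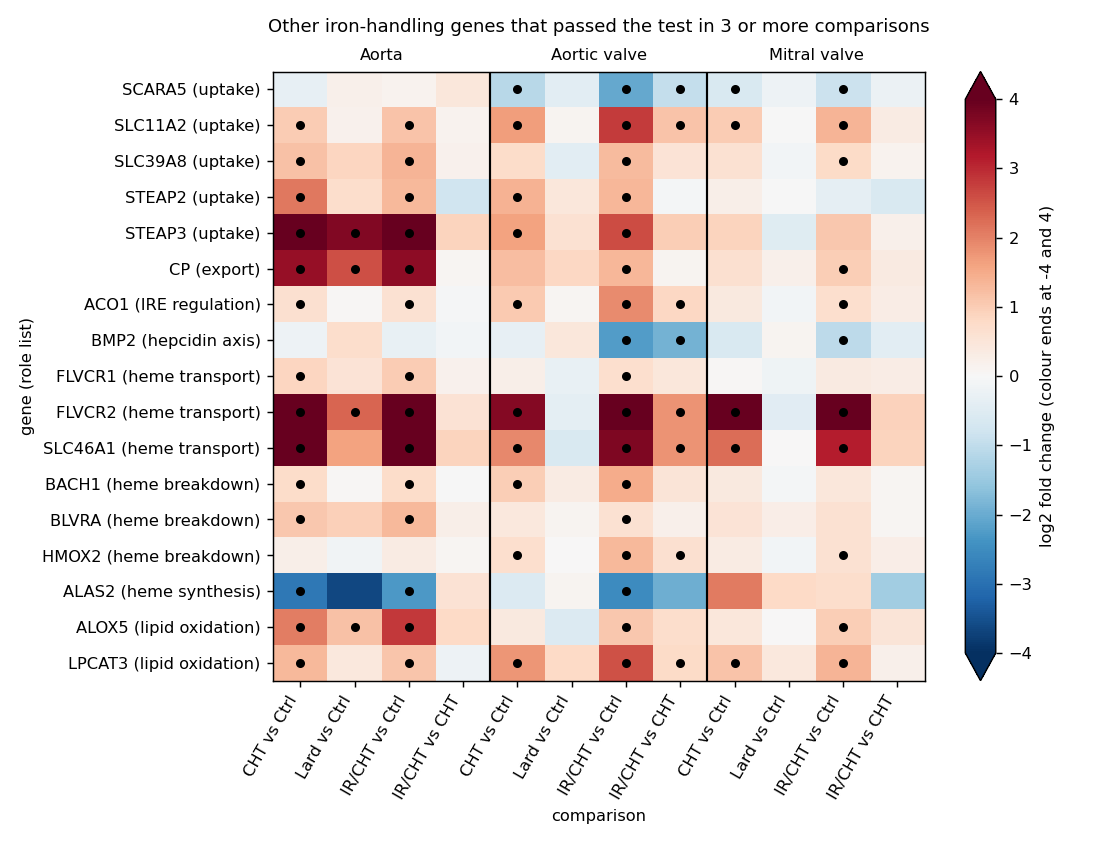
Log2 fold change (colour, ending at -4 and 4) of the 17 other iron-handling genes that were called in 3 or more comparisons (y axis, with the role list) in the 4 comparisons of each of 3 tissues, the aorta and the 2 left-sided valves (x axis). Black dots mark genes with an adjusted p under 0.05 and a fold change over 1.5. SCARA5, BMP2 and ALAS2 carry dots on blue, the other 14 on red, and no dot lies on Lard in the valves shown.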

How the data were processed

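The authors deposited whole-number counts of read pairs per gene, not normalized and not pooled, in 1 table for each of 2 plates. Per the paper's methods, stranded total RNA libraries were sequenced as paired ends and run through nf-core/rnaseq with the OryCun2.0 assembly of the rabbit and its Ensembl genes. Gene rows were identical between the tables, each column was matched to its sample label, and 0 libraries had identical counts.

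CPM were computed on library sizes scaled by TMM over all 134 libraries. In each tissue, 1 edgeR 4.0.16 quasi-likelihood model (R 4.3.3, filterByExpr, TMM, robust, no covariate) was fitted to the 4 treatments. A call needed an adjusted p under 0.05 (Benjamini-Hochberg, all genes of the tissue) and a fold change over 1.5. The fits were first tested on simulated data. Similarity used log2 CPM with a prior count of 2.

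The genes and lists were chosen with earlier results of these data known. Named were the 4 genes, up to 3 called genes with the smallest p for each role list and comparison, further called genes singled out after their values were seen, and 5 similar genes each. Alternatives were DESeq2 1.42.0, its size factors in edgeR, no filter, only the groups compared, the plate as covariate, each plate alone, each library left out, raw library totals for levels, and other correlations; leaving out the 8 libraries unlike their group, or L566 of the aorta for marker counts, was added after the data were seen. The unit of replication is the rabbit, and p-values reflect the spread between rabbits. How reads shared with ferritin-like loci were counted is not given in the sources used here, so the FTL level is uncertain to that extent.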

Additional observations from a re-analysis of the deposited data

Results flagged for a closer look

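In 80 groups of 6 or 7 libraries (4 genes, 5 tissues, 4 treatments), 5 held 1 library far from the others by Dixon's test at its 95% critical value, which chance alone passes in about 1 in 20 groups. FTL was at 3757 CPM in replicate L566 of the aorta on IR/CHT, with the next library at 2314 CPM, and this library also had the lowest smooth muscle marker sum of the aorta, 11380 CPM, the highest heart muscle marker sum of its group, 3095 CPM, with the next at 833 CPM, and the highest HMOX1 of its group, 118 CPM. In replicate L578 of the aorta on Lard, FTL was at 986 CPM, with the next library at 474 CPM, and TFRC was at 116 CPM, with the next at 64.0 CPM, while its SLC40A1 was the lowest of the group at 36.3 CPM. FTL was at 883 CPM in replicate L168 of the tricuspid valve on Ctrl, with the next library at 400 CPM, in the library least like its group. HMOX1 was at 34.5 CPM in replicate L176 of the pulmonary valve on IR/CHT, with the next at 15.2 CPM, in the library with 21378 CPM of smooth muscle markers.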

How the results depend on the processing

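No paired analysis was possible because each comparison tested, between treatments within a tissue, is between different rabbits. Tissues of the same rabbits were compared without a test. The share of FTL in both ferritin chains was not run, since FTH1 was not found. For the 4 genes, 1068 log2 fold changes with 1 library left out moved by less than the spread between replicates. Nothing is read from this, since leaving out 1 library of a group can hardly move its mean by that much. Among them, FTL on CHT in the tricuspid valve turned from -0.06 to 0.30 without L168. Under other settings, 527 log2 fold changes moved by less than that spread, and 17 moved by more. On plate 2 alone, FTL was at 0.26 on Lard in the mitral valve and at -0.85 on CHT, -0.76 on Lard and 0.013 on IR/CHT in the tricuspid valve, HMOX1 at 1.53 on IR/CHT in the mitral valve and at -0.13 on CHT in both right-sided valves. There TFRC was at -0.32 on Lard in the mitral valve, at 0.47 on CHT, 0.39 on Lard and -0.89 for IR/CHT against CHT in the pulmonary valve, and at 0.93 on CHT and -0.68 for IR/CHT against CHT in the tricuspid valve. On plate 1 alone, FTL was at 0.39 on CHT in the tricuspid valve, and HMOX1 at 2.88 on IR/CHT and TFRC at 0.26 on Lard in the mitral valve. Without the libraries that stood apart, FTL was at 0.14 on Lard in the aortic valve. With raw library totals, mean levels moved for FTL and SLC40A1 in the aorta on Ctrl, to 235.4 and 44.1 CPM, and for TFRC in the mitral valve on CHT, to 30.6 CPM.

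Of the counts of other iron-handling genes called, 119 stayed within 1.5 times and 17 did not. DESeq2 gave 10 on Lard and 2 for IR/CHT against CHT in the aorta, 2 on CHT and 1 for IR/CHT against CHT in the pulmonary valve, and 1 on CHT and 2 on IR/CHT in the tricuspid valve. With only the 2 groups compared, 0 were called in the aorta on Lard and 0 in the pulmonary valve on IR/CHT. On plate 1 alone, 1 was called in the pulmonary and 2 in the tricuspid valve on IR/CHT, and on plate 2 alone 17 in the aortic, 5 in the mitral and 0 in the pulmonary valve on IR/CHT and 0 in the pulmonary valve on CHT. Without the libraries that stood apart, 1 was called in the pulmonary and 3 in the tricuspid valve on IR/CHT and 1 in the tricuspid valve on CHT. With each library left out in turn, the count was 0 to 3 for IR/CHT against CHT in the aorta (3 without IR/CHT replicate L579), 4 to 8 on Lard in the aorta (8 without Ctrl replicate L551), 0 to 2 on IR/CHT in the pulmonary valve (0 without IR/CHT replicate L176 or Ctrl replicate L242), and 0 to 1 on CHT and 0 to 7 on IR/CHT in the tricuspid valve (both highest without L168). Of the 5 most similar genes, Spearman's correlation shared 4 for FTL, 1 for TFRC, 4 for SLC40A1 and 3 for HMOX1, and correlation within groups shared 1 for each. Except for the fewer libraries in some settings, the cause was not tested.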
